A study of Mus musculus with 18 samples.

Results

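Kidneys of mice given STZ and AOS were compared with kidneys of mice given STZ alone. The comparison takes 6 of the 18 RNA sequencing libraries of the series, 3 per group, chosen by their treatment labels and not by any measured value. All are from ICR mice, an outbred stock, aged 10 weeks. STZ stands by common usage for streptozotocin, which kills pancreatic beta cells and is used to make rodents diabetic. Every mouse of both groups had STZ, and the groups differ by AOS at 10 mg/kg, an agent whose name the labels do not spell out. The other 12 libraries, 3 each, are controls, mice given AOS alone at 10 mg/kg (AOS), and mice given STZ with a transfer labelled control FMT (STZ+control-FMT) or AOS FMT (STZ+AOS-FMT). They serve here as a reference range and for the spread within groups. The sources used here do not give the dose, route and timing of STZ, the order of STZ and AOS, the sex of the mice or any measure of blood glucose. Whether each library is from a separate mouse is not stated, so the spread behind the p-values may be in part technical.

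The proximal tubule does most of the reabsorption of the kidney. Its cells take back glucose, amino acids, phosphate and filtered protein, secrete organic anions and cations, make glucose, and burn fatty acids in many mitochondria. Streptozotocin enters cells through the glucose carrier Glut2, which both beta cells and proximal tubule cells carry, so an STZ kidney can hold direct toxic damage as well as effects of diabetes. Damaged proximal tubule cells are known to lose transporters and enzymes and to make Havcr1 (kidney injury molecule 1) and Lcn2 (neutrophil gelatinase-associated lipocalin).

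Levels are in FPKM, a read density scaled to gene length and library size, and those of a group are given in the order of replicates 1, 2 and 3. In the 6 libraries, between 11416 and 12607 genes reached 1 FPKM. Markers of the kidney were present in all 6: Umod of the thick ascending limb at 346 to 641 FPKM and Slc34a1 of the proximal tubule at 1288 to 3086 FPKM. Replicates differed more in both groups than in AOS and the transfer groups: the median absolute log2 difference between replicates was 0.193 to 0.33 in STZ and 0.212 to 0.289 in STZ+AOS, against 0.1 to 0.134 in AOS and both transfer groups. Control 3 also stood apart, at 0.325 and 0.343 from the other two controls, which were 0.124 from each other. Kap, an androgen-regulated proximal tubule transcript, was at 144830, 63552 and 14615 FPKM in STZ and at 6174, 35781 and 41198 FPKM in STZ+AOS. Cdkn1a, the cell cycle inhibitor p21, was at 6.52, 62.5 and 80.1 FPKM in STZ and at 112, 76.0 and 155 FPKM in STZ+AOS. STZ 1 was thus the library with the most Kap and the least Cdkn1a. Cyp11b1, the last enzyme of glucocorticoid synthesis in the adrenal cortex, was at 0, 5.13 and 5.13 FPKM in STZ and at 316, 14.3 and 276 FPKM in STZ+AOS, so STZ+AOS 1 and 3 stood apart from STZ+AOS 2. Prm1, a protamine of spermatids, was at 20.8, 14.0 and 6.64 FPKM in STZ and was listed at 0 in each STZ+AOS library.

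**Figure D1:**
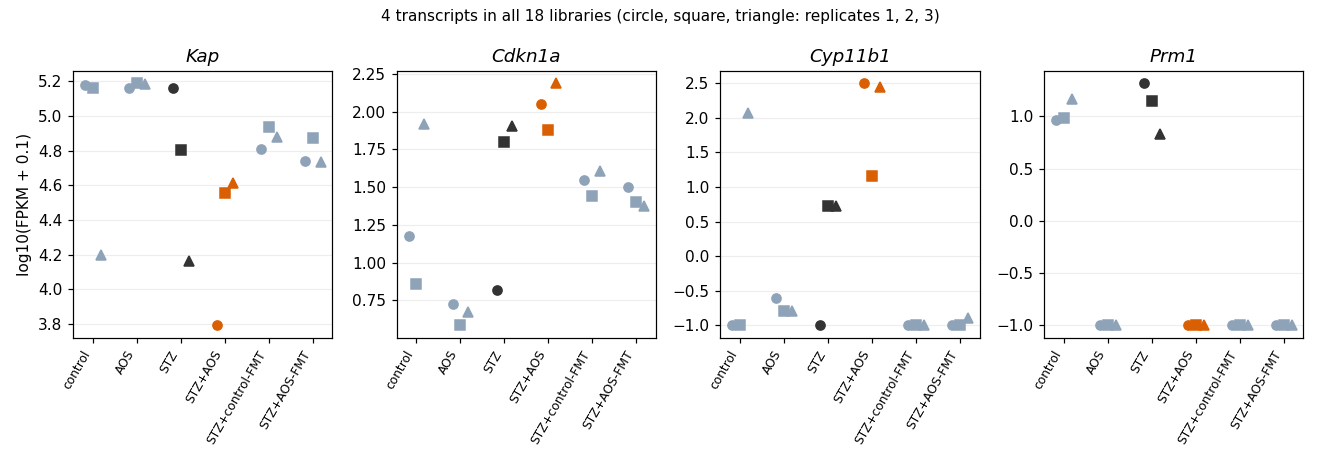
Levels of Kap, Cdkn1a, Cyp11b1 and Prm1 as log10(FPKM + 0.1) on separate vertical axes, in each of the 18 libraries by group (black, STZ; orange, STZ+AOS; blue-grey, the other 4 groups). STZ 1 lies close to the AOS libraries in Kap and Cdkn1a, STZ+AOS 1 and 3 have the most Cyp11b1, and Prm1 is present in the control and STZ libraries and listed at 0 in every library of AOS, STZ+AOS and both transfer groups.

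Between STZ+AOS and STZ, 436 genes were higher and 139 lower in STZ+AOS at an adjusted p under 0.05, which is 3.44% and 1.10% of the 12682 genes tested (limma on log2(FPKM + 1), all 18 libraries in 1 fit, Benjamini-Hochberg). Together these are 575 genes, or 4.53%. Differences between the groups are given below on this log2 scale ± standard error, which understates changes of genes near 0. The groups did not overlap for 3077 genes (24.3%), of which 2568 were higher (20.2%) and 509 lower (4.01%). The median difference of all genes was 0.19, and 9340 genes (73.6%) had a difference above 0. Quantile normalization moved that median to -0.02 and median-of-ratios rescaling to 0.01, and the calls became 37 higher and 91 lower, or 219 higher and 475 lower. Directions of gene lists are therefore given relative to the median of all genes.

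The calls and standard errors rest on a spread estimated over all 6 groups. Replicates of both compared groups differed more than those of AOS and the transfer groups. The standard errors and p-values may therefore be too small for this comparison. A fit of the 6 libraries alone called 0 genes, with 1887 at an unadjusted p under 0.05 and a smallest adjusted p of 0.148. In the fit of all 18 libraries, 0 genes were called higher and 11 lower without STZ 1, 0 and 11 without STZ 2, and 2 and 13 without STZ+AOS 1. Leaving out STZ 3 gave 2768 and 587, leaving out STZ+AOS 2 gave 1040 and 344, and leaving out STZ+AOS 3 gave 127 and 60. Of the 436 genes called higher, STZ 1 had the lowest STZ value in 360 (82.6%) and STZ+AOS 2 the lowest STZ+AOS value in 327 (75%). Each of the 575 called genes had the same direction under those of the 16 other ways of processing that fitted it. Some called genes were left out of some fits by the filter. The call held without each of the 6 libraries in turn for 0 of the higher genes and for 10 of the lower genes, which were Nat8f1, Prm1, Prm2, Tnp1, Tnp2, Fabp9, Ldhc, Oaz3, Spata4 and Meig1. All but Nat8f1 are spermatid genes, which were tested through libraries in which they were high. Their calls are therefore a description.

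**Figure D2:**
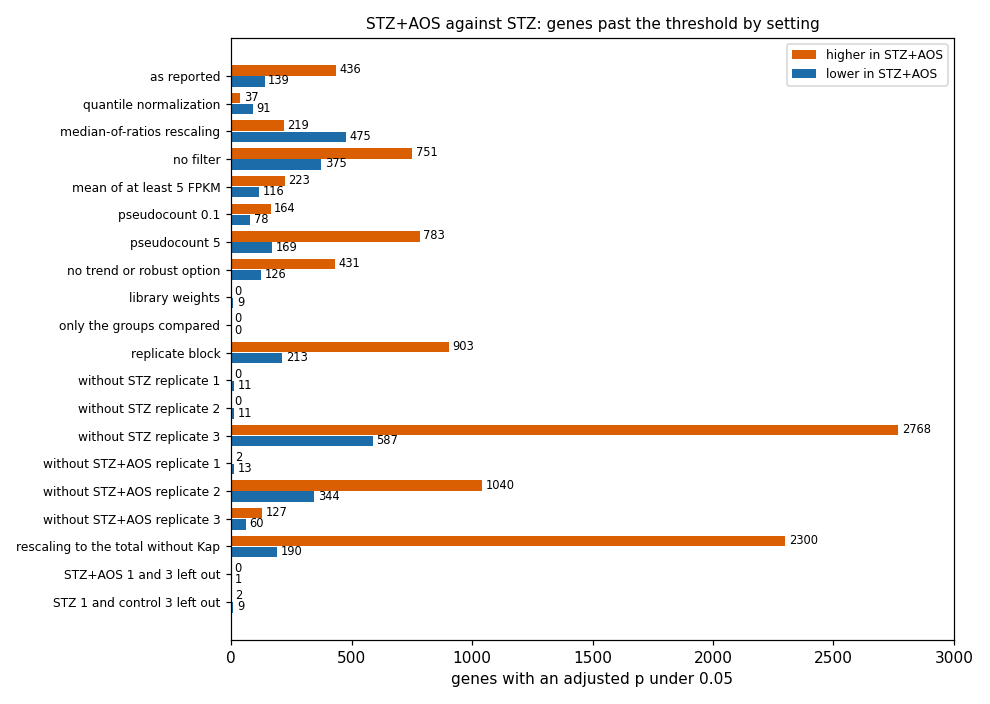
Number of genes with an adjusted p under 0.05 that were higher (orange) or lower (blue) in STZ+AOS than in STZ, for the analysis as reported and each alternative. The counts run from 0 to 2768 for higher and from 0 to 587 for lower genes.

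Several transporters of the proximal tubule were among the genes that fell in STZ+AOS. Of 24 proximal tubule markers, all tested, Slc22a6, Slc13a3, Slc3a1 and Fxyd2 fell and 0 rose (16.7% lower, against 1.10% of all genes), and 22 lay below the median of all genes. The list's median was 0.61 below that of all genes. Slc22a6, the organic anion transporter OAT1 of the basolateral membrane, was at 592, 438 and 357 FPKM in STZ and at 222, 316 and 218 FPKM in STZ+AOS, a difference of -0.86 ± 0.22 (limma, adjusted p = 0.0478). Slc13a3, the dicarboxylate carrier NaDC3 that supplies OAT1 with its exchange substrate, was at 389.98, 250.1 and 379 FPKM in STZ and at 149, 247 and 191 FPKM in STZ+AOS (-0.80 ± 0.18, adjusted p = 0.0374). In both genes every STZ+AOS library was below every STZ library, by little for STZ+AOS 2.

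A pair of amino acid carriers was also among the falls. Slc3a1, the heavy subunit of the cystine and dibasic amino acid transporter of the brush border, was at 259.9, 269 and 211 FPKM in STZ and at 148, 204 and 182 FPKM in STZ+AOS (-0.47 ± 0.12, adjusted p = 0.0455). Slc6a20b, of a family of proline carriers, was at 97.4, 83.7 and 62.7 FPKM in STZ and at 39.8, 56.6 and 45.5 FPKM in STZ+AOS (-0.76 ± 0.17, adjusted p = 0.037). Those were 2 of 21 amino acid transporters (9.52%, against 1.10% of all genes), and 0 rose. Of the 21, 9 had a difference above 0 and 17 lay below the median of all genes. The list median was -0.09, which is 0.28 below that of all genes. With STZ+AOS 1 and 3 left out it was 0.0, against 0.17 for all genes. Folr1, the folate receptor of the brush border, was at 374, 309 and 296 FPKM in STZ and at 214, 228 and 245 FPKM in STZ+AOS (-0.50 ± 0.10, adjusted p = 0.0336). Pdzk1, a scaffold that holds carriers at the brush border, was at 655, 563 and 444 FPKM in STZ and at 326, 441 and 303 FPKM in STZ+AOS (-0.63 ± 0.15, adjusted p = 0.0419). Each of these genes fell without overlap between the groups. Fxyd2, the gamma subunit of the sodium pump, fell by 0.43 ± 0.11 (adjusted p = 0.0478) from 7467, 5687 and 6814 FPKM to 4635, 5545 and 4636 FPKM. Cldn10, a claudin of tight junctions in the proximal tubule and thick ascending limb, fell by 0.79 ± 0.21 (adjusted p = 0.0478) and was at 148 to 315 FPKM in the other 12 libraries. Of these 8 falls, 0 passed the test without STZ 1 (adjusted p 0.174 to 0.225) or STZ+AOS 1 (0.116 to 0.146), 1 without STZ 2 (0.0332 to 0.116) and 1 without STZ+AOS 3 (0.0496 to 0.0793). Quantile normalization left 0 of the 8 past the threshold (0.0571 to 0.107), and all 8 stayed lower in STZ+AOS in each of these fits.

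Promoters of 4 of the genes that fell are shown because Slc22a6, Slc3a1, Agxt2 and Nat8f1 are expressed in the proximal tubule, where the factor Hnf4a helps to keep cell identity. Each sequence is the 250 bases before the RefSeq start (GRCm38.p6, the patch release of mm10), read 5′ to 3′ on the strand of the gene, with matches to CAAAGTC (core letters of HNF4-type sites) on either strand in capitals. The motif was chosen after the falls were seen. The Slc22a6 window is chr19:8617746-8617995 on the plus strand and holds 0 matches, the Slc3a1 window is chr17:85028097-85028346 on the plus strand and holds 1 match to CAAAGTC, the Agxt2 window is chr15:10358283-10358532 on the plus strand, at the 1 of its 2 listed starts with a match, and holds 1 match to CAAAGTC, and the Nat8f1 window is chr6:85915633-85915882 on the minus strand and holds 0 matches.
Slc22a6: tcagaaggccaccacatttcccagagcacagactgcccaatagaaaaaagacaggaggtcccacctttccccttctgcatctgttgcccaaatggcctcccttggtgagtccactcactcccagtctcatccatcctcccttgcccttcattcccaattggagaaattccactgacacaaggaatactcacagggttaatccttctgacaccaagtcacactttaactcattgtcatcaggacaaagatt
Slc3a1: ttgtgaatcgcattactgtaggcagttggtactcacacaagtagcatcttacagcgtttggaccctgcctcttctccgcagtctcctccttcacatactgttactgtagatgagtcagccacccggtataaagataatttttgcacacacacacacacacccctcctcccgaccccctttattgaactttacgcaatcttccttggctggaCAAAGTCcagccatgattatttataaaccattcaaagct
Agxt2: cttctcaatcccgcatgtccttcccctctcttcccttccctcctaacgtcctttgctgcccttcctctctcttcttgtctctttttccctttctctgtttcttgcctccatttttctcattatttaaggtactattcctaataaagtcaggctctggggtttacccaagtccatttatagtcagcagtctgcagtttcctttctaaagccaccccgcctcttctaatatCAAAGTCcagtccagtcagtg
Nat8f1: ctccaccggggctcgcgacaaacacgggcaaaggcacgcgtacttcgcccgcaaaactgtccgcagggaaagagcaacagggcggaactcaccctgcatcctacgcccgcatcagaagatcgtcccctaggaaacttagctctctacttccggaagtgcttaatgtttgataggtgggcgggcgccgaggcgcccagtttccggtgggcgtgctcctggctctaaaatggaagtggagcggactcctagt
In windows of 300 bases that also hold the 50 bases after the start, CAAAGTC was found on either strand in 16 of the 117 genes called lower that have a promoter in the RefSeq table (13.7%), at any listed start. It was in 10 of 339 genes called higher (2.95%) and in 470 of 9998 genes tested (4.7%). A match is a description of these windows, not evidence of binding.

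Nat8f1 kept its call under more ways of processing than any other gene, where a gene that was not fitted counts as not called. It belongs to the NAT8 family of acetyltransferases of kidney and liver and lies on chromosome 6 (85910154 to 85915687, minus strand, GENCODE M21 on mm10). Its level was 341, 219 and 253 FPKM in STZ and 100.3, 135 and 104 FPKM in STZ+AOS, against 226 to 344 FPKM in the other 12 libraries. The difference was -1.24 ± 0.15 (limma, adjusted p = 0.00124), and the adjusted p was at most 0.0121 when each library was left out. It passed the test in 15 of the 16 other ways of processing, the exception being the fit of the 6 libraries alone. Prm1, Prm2, Tnp1, Tnp2, Fabp9, Oaz3, Ldhc and Spata4 passed in 14. The filter at a mean of at least 5 FPKM left those genes unfitted. With STZ+AOS 1 and 3 left out, the difference of Nat8f1 was -0.97. Nat8f1 has near-identical neighbours in a gene cluster, and how reads shared between them were assigned is not stated, so its level is uncertain.

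Single enzymes of metabolism and conjugation fell, while most members of their lists did not pass. Cmbl, a hydrolase that activates ester prodrugs, was at 274, 243 and 249 FPKM in STZ and at 119.7, 182 and 150.1 FPKM in STZ+AOS (-0.78 ± 0.12, adjusted p = 0.0126). Agxt2, the mitochondrial aminotransferase that clears asymmetric dimethylarginine, was at 50.5, 35.4 and 39.5 FPKM in STZ and at 16.0, 28.4 and 27.1 FPKM in STZ+AOS (-0.81 ± 0.19, adjusted p = 0.0419). Fbp1, the fructose bisphosphatase of gluconeogenesis, was at 1209, 1469 and 1223 FPKM in STZ and at 619, 931 and 975 FPKM in STZ+AOS (-0.65 ± 0.17, adjusted p = 0.0478). In these 3 genes STZ+AOS 1 was the lowest library of all 6. Akr1a1, an aldehyde reductase that also serves vitamin C synthesis in mice, fell by 0.40 ± 0.10 (adjusted p = 0.0478). Of 35 conjugation enzymes 3 fell (8.57%, against 1.10% of all genes) and 0 rose: Acsm1, a medium-chain acyl-CoA synthetase (-0.90 ± 0.24), Sult1c2, a sulfotransferase (-0.81 ± 0.20), and Gstz1, a glutathione transferase of tyrosine breakdown (-0.49 ± 0.12), with adjusted p values of 0.0486, 0.0478 and 0.0473. Cryzl2, which resembles quinone oxidoreductases, fell by 0.80 ± 0.21 (adjusted p = 0.0486). Those 8 falls gave adjusted p values of 0.102 to 0.225 without STZ 1 and 0.0504 to 0.124 without STZ 2, with 0 past the threshold, while 1 passed without STZ+AOS 1 and 3 without STZ+AOS 3. Under quantile normalization 1 of the 8 passed.

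The other named falls among kidney-expressed genes were Smim24, Sectm1b, Prok1, Smlr1 and Erich4. Smim24, a small membrane protein, was at 241, 206 and 258 FPKM in STZ and at 79.9, 154 and 119 FPKM in STZ+AOS (-1.04 ± 0.19, adjusted p = 0.0288). Sectm1b, a transmembrane protein that can be shed, fell by 1.17 ± 0.24 (adjusted p = 0.0336) and Prok1, the secreted peptide prokineticin 1, by 0.95 ± 0.21 (adjusted p = 0.0372). Smlr1 (-0.87 ± 0.17) and Erich4 (-0.80 ± 0.21) fell too, with adjusted p values of 0.0335 and 0.0488. All 3 STZ+AOS libraries lay below the other 12 in Smim24, Sectm1b, Prok1, Smlr1 and Erich4, by little in Sectm1b. Without STZ 1, STZ 2 or STZ+AOS 1, 0 of these 5 passed (adjusted p 0.0726 to 0.229 over the 3 fits), and 1 passed without STZ+AOS 3.

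Mitochondrial transcripts were lower by small amounts but across the list. All 41 nuclear genes of oxidative phosphorylation had a difference below 0, with a list median of -0.20, which is 0.39 below that of all genes. The groups did not overlap in 15 of them, all lower (36.6%, against 4.01% of all genes), and 3 fell at the threshold (7.32%, against 1.10% of all genes). Cox5a, a subunit of cytochrome c oxidase, was at 693, 687 and 654 FPKM in STZ and at 539.8, 557 and 550.2 FPKM in STZ+AOS (-0.30 ± 0.07, adjusted p = 0.0448). Uqcrfs1, the iron-sulfur subunit of complex III, was at 324, 339 and 285 FPKM in STZ and at 236, 275 and 247 FPKM in STZ+AOS (-0.32 ± 0.08, adjusted p = 0.0478). Ndufb3, of complex I, was at 149, 145 and 138 FPKM in STZ and at 110.4, 125 and 118 FPKM in STZ+AOS (-0.29 ± 0.07, adjusted p = 0.0478). In each of these 3 genes STZ+AOS 2 was the STZ+AOS library nearest to STZ. The STZ+AOS values of Cox5a were close to each other. Slc25a10, the dicarboxylate carrier of the inner mitochondrial membrane, changed most: 127, 118 and 129.5 FPKM in STZ against 62.3, 59.1 and 54.8 FPKM in STZ+AOS, and 75.3 to 150.2 FPKM in the other 12 libraries (-1.08 ± 0.20, adjusted p = 0.0288). The list median was -0.10 under quantile normalization, where the median of all genes was -0.02, and -0.11 with STZ+AOS 1 and 3 left out, where it was 0.17 and 6 of the 41 were higher. Without STZ 1, STZ 2 or STZ+AOS 1, 0 of the 4 named genes passed (adjusted p 0.0827 to 0.217 over the 3 fits), and 1 did without STZ+AOS 3.

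List medians of other nephron segments lay nearer to that of all genes than the median of the proximal tubule list did. Of the tested markers, 0 of 13 of the distal convoluted and connecting tubule, 0 of 13 of collecting duct principal cells and 0 of 14 of intercalated cells passed the test. Of all genes 4.53% passed, so 0 in a list of 12 to 14 genes is close to that share. Their medians were 0.13 below, 0.11 above and 0.13 below that of all genes. Of 11 thick ascending limb markers Cldn10 alone passed (9.09% lower, against 1.10% of all genes), and the list median was 0.10 below that of all genes. Of 12 renal glucose and sugar transporters 0 passed, with a median 0.39 below that of all genes, and with STZ+AOS 1 and 3 left out the median was 0.19, against 0.17 for all genes. Of 38 genes of fatty acid oxidation 0 fell and 1 rose (2.63%, against 3.44% of all genes). Of 39 ribosomal protein genes 0 passed, with a median 0.02 above that of all genes (0.29 against -0.02 under quantile normalization). In whole kidney RNA, fewer cells of a type and less RNA per cell cannot be told apart.

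**Figure D3:**
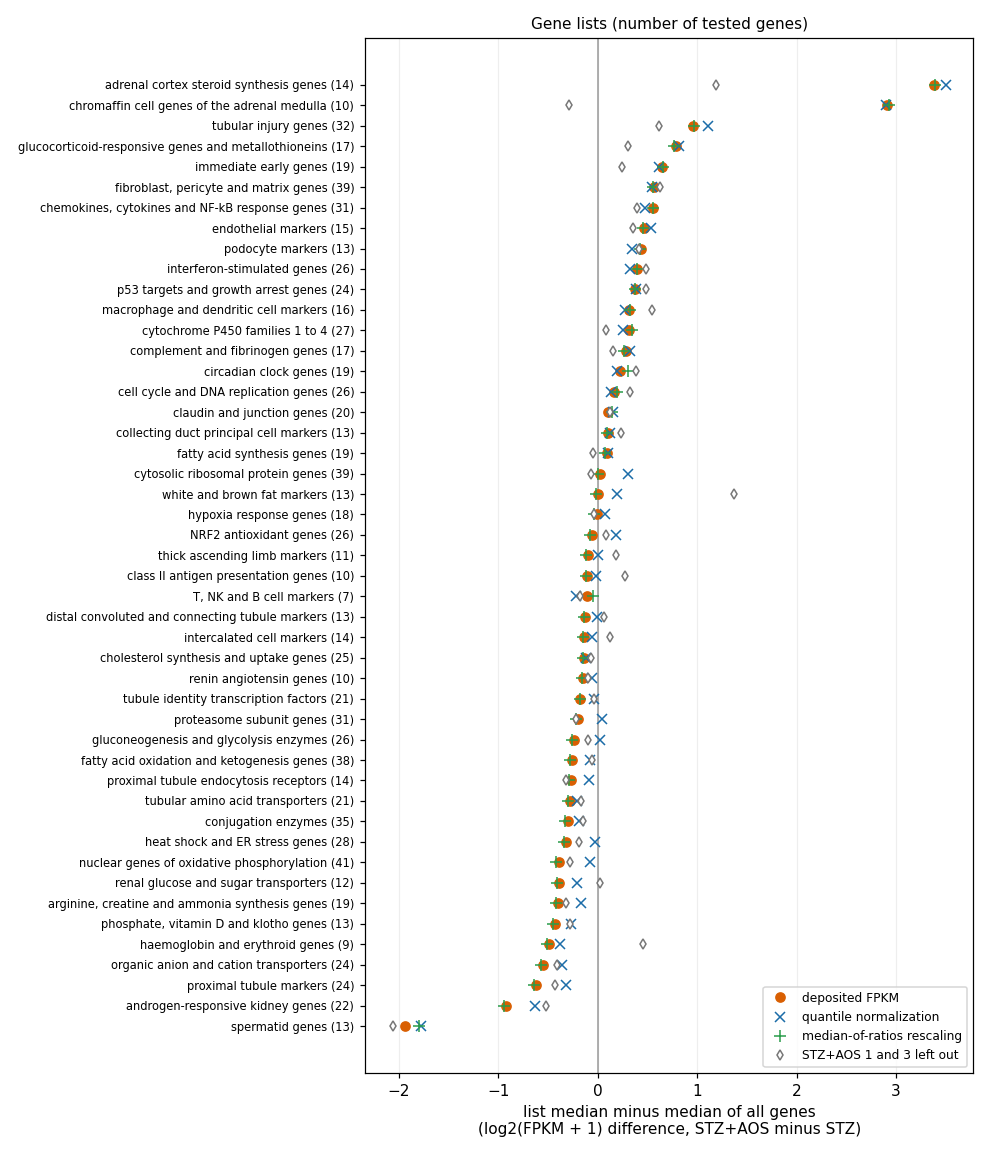
Median difference between STZ+AOS and STZ in each gene list with at least 4 tested genes, minus the median of all genes, on the log2(FPKM + 1) scale (orange circles). Crosses and plus signs give the same after quantile normalization and median-of-ratios rescaling, and open diamonds with STZ+AOS 1 and 3 left out; proximal tubule and oxidative phosphorylation lists lie to the left and injury, matrix and endothelial lists to the right in all 4.

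Pdk4, Cebpb, Slc38a2, Slc20a1 and Tubb6 were among the rises of genes expressed in the kidney. Pdk4, the kinase that shuts pyruvate dehydrogenase when fat is burned, was at 3.55, 4.79 and 10.7 FPKM in STZ and at 21.9, 15.1 and 26.6 FPKM in STZ+AOS (1.68 ± 0.37, limma, adjusted p = 0.037). Cebpb, a transcription factor of the acute phase and of gluconeogenesis, was at 9.92, 15.7 and 22.7 FPKM in STZ and at 53.2, 25.0 and 61.5 FPKM in STZ+AOS (1.45 ± 0.33, adjusted p = 0.0394). Both groups were separate in each gene, and all STZ+AOS values lay above the other 12 libraries. Slc38a2, a sodium-coupled carrier of neutral amino acids, was at 8.89, 14.3 and 21 FPKM in STZ and at 44.7, 29.2 and 30.6 FPKM in STZ+AOS (1.24 ± 0.29, adjusted p = 0.0419). Slc20a1, the phosphate carrier PiT-1, was at 10.8, 16.8 and 19.5 FPKM in STZ and at 60.6, 28.9 and 26.4 FPKM in STZ+AOS (1.18 ± 0.28, adjusted p = 0.042). Tubb6, a beta-tubulin, was at 5.20, 5.81 and 4.92 FPKM in STZ and at 19.4, 7.88 and 15.2 FPKM in STZ+AOS (1.18 ± 0.22, adjusted p = 0.0288). STZ 1 was the lowest library in Pdk4, Cebpb, Slc38a2 and Slc20a1, but not in Tubb6, where STZ 3 was.

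The remaining rises of this kind were smaller or more uneven. Tsc22d1, a leucine zipper protein of TGF-beta signalling, was at 151, 149 and 126 FPKM in STZ and at 446, 184 and 303 FPKM in STZ+AOS (1.04 ± 0.23, adjusted p = 0.0377). Isyna1, which makes myo-inositol from glucose 6-phosphate, was at 16.4, 24.7 and 30.8 FPKM in STZ and at 55.6, 39.3 and 53.2 FPKM in STZ+AOS (1.04 ± 0.27, adjusted p = 0.0478). Pdlim7, an actin-associated LIM protein, rose by 1.43 ± 0.37, Acsl4, an acyl-CoA synthetase that prefers arachidonic acid, by 1.15 ± 0.29, Ifrd1, a transcriptional co-regulator, by 1.15 ± 0.29, and Efhd2, a calcium-binding actin regulator, by 0.98 ± 0.24, with adjusted p values of 0.0475 to 0.0478. In these 6 genes STZ+AOS 2 was the STZ+AOS library nearest to STZ. Without STZ 1, STZ 2 or STZ+AOS 1, 0 of the 11 rises named here and above passed (adjusted p 0.087 to 0.225 over the 3 fits), without STZ+AOS 3 there were 2, and quantile normalization left 4. Further members of metabolic and transcription factor lists that rose were Elovl5, an elongase of polyunsaturated fatty acids (0.63 ± 0.14), Mlxipl, the glucose-sensing factor ChREBP (0.44 ± 0.10), Pax8, a nephron lineage factor (0.76 ± 0.19), Rora, a nuclear receptor of the clock (0.55 ± 0.13), and Fgfr1, a growth factor receptor that binds Fgf23 with klotho (0.58 ± 0.12), with adjusted p values from 0.0336 to 0.0469. Ctsl, a lysosomal protease of the endocytosis list, was at 201, 225 and 285 FPKM in STZ and at 903, 242 and 1142 FPKM in STZ+AOS, so the groups overlapped (1.42 ± 0.38, adjusted p = 0.0497), and with STZ+AOS 1 and 3 left out the difference was 0.04 (adjusted p = 0.905). Of these 6 genes, 0 passed when any of STZ 1, STZ 2, STZ+AOS 1 or STZ+AOS 3 was left out.

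**Figure D4:**
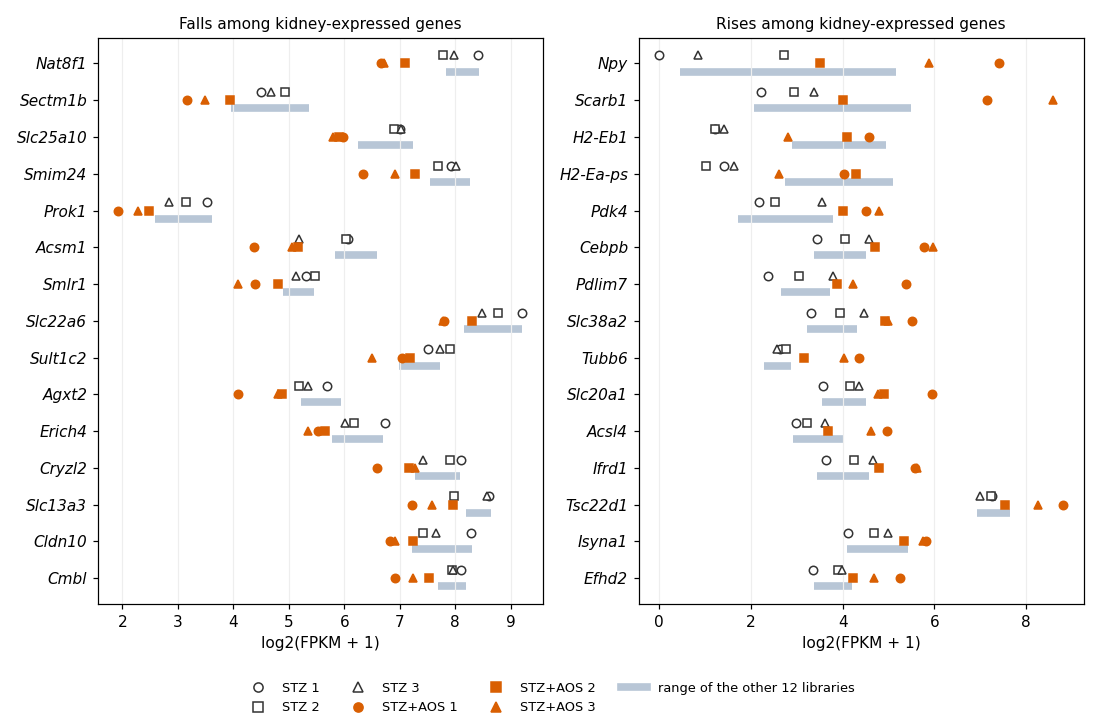
Each library's level, as log2(FPKM + 1), of the 15 falls (left) and 15 rises (right) of largest size among genes with a mean of at least 5 FPKM in the AOS and transfer groups. Open symbols are STZ 1 to 3, orange symbols STZ+AOS 1 to 3, and bars the range of the other 12 libraries; most STZ+AOS values lie outside the bar, whereas in H2-Eb1 and H2-Ea-ps all STZ values lie below it, and of the STZ+AOS values that of STZ+AOS 3.

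Transcripts of tubular injury were higher in STZ+AOS, but few passed the test. All 32 of the tested injury genes lay above the median of all genes, with a list median 0.97 above that of all genes, 9 did not overlap between the groups (28.1%, against 20.2% of all genes), and 3 rose at the threshold (9.38%, against 3.44% of all genes). Havcr1 was at 1.30, 5.87 and 5.16 FPKM in STZ and at 423, 32.0 and 7.45 FPKM in STZ+AOS, a difference of 3.42 ± 1.03 that did not pass (adjusted p = 0.0606). Lcn2 was at 1.90, 6.19 and 44.2 FPKM in STZ and at 772, 62.8 and 27.2 FPKM in STZ+AOS (3.51 ± 1.14, adjusted p = 0.0696). Timp1, an inhibitor of matrix proteases, was at 0.36, 1.40 and 1.01 FPKM in STZ and at 72.3, 4.91 and 1.92 FPKM in STZ+AOS (2.53 ± 0.79, adjusted p = 0.0647). In these 3 genes STZ+AOS 1 was far above every other library, and STZ+AOS 3 was within or just above the STZ range. Krt20, a keratin of damaged tubule cells, was at 0, 0.72 and 4.04 FPKM in STZ and at 15.9, 4.68 and 1.21 FPKM in STZ+AOS (adjusted p = 0.14). Spp1, osteopontin, was at 327, 1180.2 and 1387 FPKM in STZ and at 3564, 1503 and 886 FPKM in STZ+AOS (adjusted p = 0.268). Cdkn1a, listed above, gave an adjusted p of 0.149.

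The genes that rose were highest in STZ+AOS 1 and 3. Cd44, the hyaluronan receptor, was at 0.48, 0.82 and 1.02 FPKM in STZ and at 6.31, 1.58 and 12 FPKM in STZ+AOS (1.83 ± 0.43, adjusted p = 0.042). Sox4, a transcription factor of progenitor and regenerating cells, was at 2.39, 3.40 and 5.54 FPKM in STZ and at 14.0, 6.52 and 10.8 FPKM in STZ+AOS (1.25 ± 0.30, adjusted p = 0.042). Fga, the fibrinogen alpha chain, was at 4.06, 8.51 and 8.02 FPKM in STZ and at 29.1, 8.0 and 49.0 FPKM in STZ+AOS, so the groups overlapped (1.66 ± 0.44, adjusted p = 0.0486). Hmox1, haem oxygenase, which breaks down haem, was at 33.7, 53.6 and 76.4 FPKM in STZ and at 140.4, 68.9 and 214 FPKM in STZ+AOS (1.28 ± 0.32, adjusted p = 0.0475) and was the 1 of 26 antioxidant genes to rise (3.85%, close to the 3.44% of all genes). Of 19 immediate early genes, all above the median of all genes, 3 rose (15.8%, against 3.44% of all genes). Jund, an AP-1 subunit, was at 47.4, 47.2 and 62.4 FPKM in STZ and at 88.4, 73.5 and 77.6 FPKM in STZ+AOS (0.61 ± 0.12, adjusted p = 0.0335). Fosl2, another AP-1 subunit, rose by 1.54 ± 0.40 (adjusted p = 0.0478), and Klf6, a zinc finger factor of injured epithelium, by 1.34 ± 0.35 (adjusted p = 0.0486). Of these 7 rises, 0 passed without STZ 1, STZ 2 or STZ+AOS 1 (adjusted p 0.101 to 0.227 over the 3 fits), 1 without STZ+AOS 3, and 1 under quantile normalization.

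**Figure D5:**
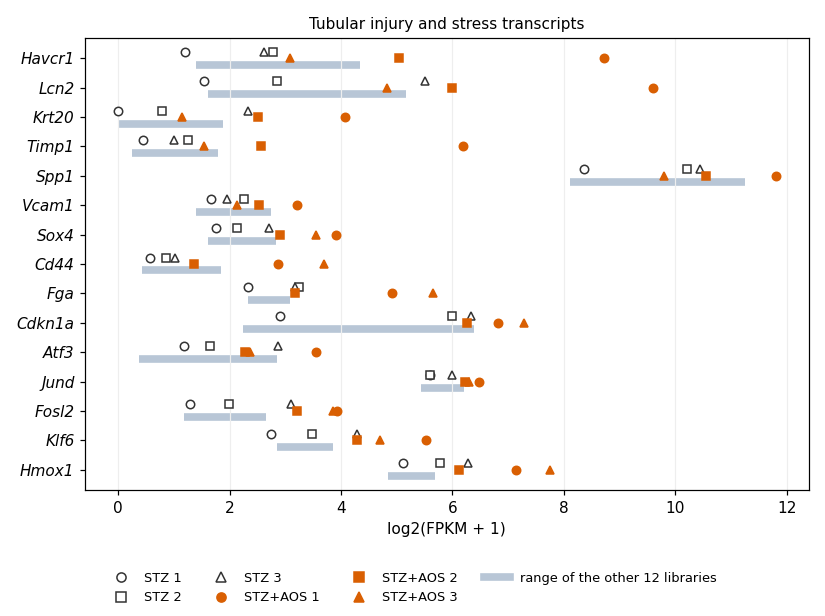
Levels of injury and stress transcripts as log2(FPKM + 1) in STZ (open) and STZ+AOS (orange) libraries, with bars for the range of the other 12 libraries. STZ+AOS 1 has the most Havcr1, Lcn2 and Timp1, STZ+AOS 3 the most Cd44, Fga and Hmox1, and STZ 1 is lowest or close to it in nearly all.

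The medians of lists of vessels, glomeruli and matrix lay above that of all genes. All 15 endothelial markers lay above the median of all genes, 12 did not overlap between the groups (80.0%, against 20.2% of all genes), and the list median was 0.47 above that of all genes. Nos3, the endothelial nitric oxide synthase, was at 1.07, 1.26 and 1.80 FPKM in STZ and at 3.78, 2.43 and 3.44 FPKM in STZ+AOS (0.82 ± 0.17, adjusted p = 0.0336). Ehd3, a trafficking protein of glomerular endothelium, was at 6.94, 10.8 and 7.64 FPKM in STZ and at 21.3, 12.9 and 17.3 FPKM in STZ+AOS (0.94 ± 0.24, adjusted p = 0.0478). These 2 are 13.3% of the endothelial list, against 3.44% of all genes, and the other 13 endothelial markers did not pass. Of 39 tested fibroblast, pericyte and matrix genes, 37 lay above the median of all genes, 16 did not overlap (41.0%), and 4 rose (10.3%, against 3.44% of all genes): Pdgfra, Lox, Thy1 and Cd44. Pdgfra, the growth factor receptor of fibroblasts, was at 1.30, 2.62 and 3.45 FPKM in STZ and at 6.59, 5.15 and 5.59 FPKM in STZ+AOS (1.02 ± 0.24, adjusted p = 0.042). It was level across the STZ+AOS libraries and above its highest value in the other 12, 3.64 FPKM. Lox, which crosslinks collagen, rose by 1.48 ± 0.38 (adjusted p = 0.0478) with overlapping groups, and Thy1, a surface protein of fibroblasts and pericytes, by 0.79 ± 0.21 (adjusted p = 0.0488). Of 13 podocyte markers 12 lay above the median of all genes, with a list median 0.44 above that of all genes, 6 without overlap (46.2%) and 0 called. With STZ+AOS 1 and 3 left out, the medians were 0.53 for endothelial, 0.80 for matrix and 0.59 for podocyte genes, against 0.17 for all genes. With STZ 1 and control 3 left out they were 0.52, 0.57 and 0.26, against 0.12 for all genes. Without STZ 1, STZ 2 or STZ+AOS 1, 0 of the 6 called genes passed (adjusted p 0.101 to 0.225 over the 3 fits), and 1 did without STZ+AOS 3.

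H2-Eb1, the beta chain of a class II antigen-presenting molecule, differed in another way. It was at 1.34, 1.34 and 1.65 FPKM in STZ and at 22.6, 16.1 and 5.96 FPKM in STZ+AOS (2.53 ± 0.51, limma, adjusted p = 0.0336), against 6.48 to 29.7 FPKM in the other 12 libraries. H2-Ea-ps, annotated as a pseudogene of the partner alpha chain, was at 1.68, 1.04 and 2.08 FPKM in STZ and at 15.3, 18.4 and 5.16 FPKM in STZ+AOS (2.29 ± 0.55, adjusted p = 0.0427), against 5.74 to 33.0 FPKM in the other 12. For this pair all STZ libraries lay below the other 12, and STZ+AOS 3 lay just below them too. The genes are neighbours on chromosome 17 (34305867 to 34316674 and 34341959 to 34344645). The rest of the class II list did not follow: H2-Aa was at 95, 146 and 109.5 FPKM in STZ and at 139, 161 and 82.1 FPKM in STZ+AOS, and Cd74 at 203, 415 and 329.7 FPKM in STZ and at 417, 466 and 222 FPKM in STZ+AOS, with overlapping groups. Neither H2-Eb1 nor H2-Ea-ps passed without STZ 1, STZ 2 or STZ+AOS 1 (adjusted p 0.101 to 0.183 over the 3 fits).

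Lists of macrophage and dendritic cell, cytokine, interferon, p53, glucocorticoid and androgen genes had 0 called members each, against 4.53% of all genes. Above the median of all genes lay 13 of 16 tested macrophage and dendritic cell markers, 28 of 31 chemokine, cytokine and NF-kB genes, 24 of 26 interferon-stimulated genes and 22 of 24 p53 targets. The medians of the first 3 lists were 0.33, 0.56 and 0.40 above that of all genes, and those without overlap were 12.5%, 32.3% and 7.69% of each list, against 20.2% of all genes. With STZ 1 and control 3 left out, their medians were 0.33, 0.46 and 0.25, and that of p53 targets 0.27, against 0.12 for all genes. Glucocorticoid-responsive genes and metallothioneins had a median 0.79 above that of all genes and androgen-responsive kidney genes one 0.92 below. With STZ 1 and control 3 left out these medians were 0.51 and -0.35, against 0.12 for all genes. Of 17 complement and fibrinogen genes Fga, given above, rose (5.88%, against 3.44% of all genes) and C1rl, a complement protease, fell (5.88%, against 1.10%; -0.60 ± 0.14, adjusted p = 0.0394). C1rl did not pass when any of STZ 1, STZ 2, STZ+AOS 1 or STZ+AOS 3 was left out. Lists of T, NK and B cells, neutrophils, haemoglobin and erythroid genes, fat markers, hypoxia, heat shock and ER stress, the cell cycle, cholesterol synthesis, cytochrome P450, proteasome and renin angiotensin genes had 0 called as well.

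The largest rises were of genes of the adrenal gland, which lies on the kidney. Of 14 tested adrenal cortex genes, out of 16 listed, 5 rose (35.7%, against 3.44% of all genes). Of 10 tested chromaffin genes of the adrenal medulla, out of 18 listed, 7 rose (70.0%). Cyp11b2, aldosterone synthase, was at 0, 0.30 and 0.55 FPKM in STZ and at 29.6, 1.54 and 30.1 FPKM in STZ+AOS (adjusted p = 0.0359). Th, tyrosine hydroxylase, was at 0, 0 and 0.05 FPKM in STZ and at 33.6, 1.53 and 11.9 FPKM in STZ+AOS (adjusted p = 0.0288). Pnmt, which makes adrenaline, was at 0, 0 and 0.22 FPKM in STZ and at 23.0, 1.31 and 29.5 FPKM in STZ+AOS (adjusted p = 0.0335). STZ+AOS 1 and 3 were high in each and STZ+AOS 2 was low, though above every STZ library. Scarb1, which takes up cholesterol from lipoproteins, was at 3.69, 6.71 and 9.32 FPKM in STZ and at 141, 15.1 and 383 FPKM in STZ+AOS (3.73 ± 0.91, adjusted p = 0.0465). Mrap, a partner of the corticotropin receptor, rose by 2.86 ± 0.65 (adjusted p = 0.0394) and Soat1, which stores cholesterol as ester, by 0.78 ± 0.17 (adjusted p = 0.037). Dbh, Chga, Chgb, Scg2, Npy and Nr5a1, genes of catecholamine synthesis, secretory granules, a neuropeptide and the steroidogenic factor 1, rose with adjusted p values of 0.0231 to 0.0497. Genes such as Dbh reached 1 FPKM in 3 libraries only through STZ+AOS and so had to differ to be tested, and the counts are a description. Summed over the adrenal cortex list, the level was 80.4, 131 and 156 FPKM in STZ, 3122, 235 and 3851 FPKM in STZ+AOS and 77.7 to 1141 FPKM in the other 12 libraries. With STZ+AOS 1 and 3 left out, 4 of the 12 called genes reached the filter and 0 passed (adjusted p 0.508 to 0.559), and 0 passed without STZ 1, STZ 2 or STZ+AOS 1.

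The adrenal signal was highest in STZ+AOS 1 and 3, and so were some genes described above, such as Cebpb and Cd44. Others differed: Cox5a, Slc25a10 and Pdgfra were similar across the STZ+AOS libraries, and Havcr1 was far lower in STZ+AOS 3 than in STZ+AOS 1. The part of the adrenal signal in the differences of kidney genes was not tested. With STZ+AOS 1 and 3 left out, 0 genes were called higher and 1 lower. The 8 transport genes stayed lower, with differences of -0.55 to -0.25 (adjusted p 0.508 to 0.517), against -0.86 to -0.43 with all libraries. The 11 kidney-expressed rises stayed higher, with differences of 0.38 to 1.25 (adjusted p 0.508 to 0.56), against 0.98 to 1.68 with all libraries. Cebpb went from 1.45 to 0.68, Tubb6 from 1.18 to 0.50, Acsl4 from 1.15 to 0.40 and Tsc22d1 from 1.04 to 0.38. Other genes changed less: Slc38a2 went from 1.24 to 1.01 and Pdgfra from 1.02 to 0.88. Of the 8 transport genes, Folr1 alone did not shrink, going from -0.50 to -0.51. Slc13a3 went from -0.80 to -0.43, Pdzk1 from -0.63 to -0.31 and Slc22a6 from -0.86 to -0.52. Of other falls, Slc25a10 went from -1.08 to -1.07 and Smim24 from -1.04 to -0.61. The summed level of fat markers did not separate the groups, at 354, 785 and 1556 FPKM in STZ and 367, 2026 and 1205 FPKM in STZ+AOS.

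The largest falls were of spermatid genes, known from the testis. Of 20 listed genes 13 were tested and 11 fell (84.6%, against 1.10% of all genes). Apart from Meig1, the genes that fell had a median of 0 in the other 12 libraries. No STZ+AOS library reached 1 FPKM in any of the 11, so they were tested through libraries in which they were high. The count, the p-values and the fits with a library left out are therefore a description. Prm1 gave an adjusted p of 5.82e-06 at the values listed above, and Prm2, the second protamine, was at 17.8, 6.65 and 4.25 FPKM in STZ and at 0, 0 and 0.18 FPKM in STZ+AOS (adjusted p = 0.000171). Tnp1 and Tnp2, the transition proteins that precede protamines on sperm DNA, were at 17.7, 8.67 and 2.82 FPKM and at 18.1, 6.82 and 4.45 FPKM in STZ, and both were listed at 0 in each STZ+AOS library (adjusted p = 0.00102 and 0.000171). Ldhc, the lactate dehydrogenase of germ cells, was at 3.55, 1.38 and 1.05 FPKM in STZ and listed at 0 in STZ+AOS (adjusted p = 0.0071). Fabp9, Oaz3, Meig1, Spata4, Gsg1 and Odf1 fell with adjusted p values of 0.00102 to 0.0273. The spermatid sum was 156, 83.2 and 55.0 FPKM in STZ and 20.1, 29.2 and 29.2 FPKM in STZ+AOS. Across all groups Prm1 was present in the 6 libraries of control and STZ and listed at 0 in the 12 libraries of AOS, STZ+AOS and both transfer groups. Without STZ 1, 10 of the 11 could be fitted and all passed, and without STZ+AOS 1, 9 of 11 passed.

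For most called genes, all 3 STZ+AOS libraries lay outside the range of the other 12. Of the 436 genes called higher, all 3 STZ+AOS libraries were above all 12 in 326 (74.8%, against 11% of all genes tested). Of the 139 called lower, they were below all 12 in 100 (71.9%, against 2.54%). All 3 STZ libraries were below all 12 in 3 of the 436 (0.688%, against 0.0946% of all genes tested), namely H2-Eb1, H2-Ea-ps and Psen2. They were above all 12 in 0 of the 139, against 0.0631% of all genes tested. Over all genes, too, all 3 STZ libraries seldom lay outside the other 12. Psen2, a presenilin, is named here after its values were seen. The 12 include the controls and the AOS group, which had no STZ, and the transfer groups, which had.

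Whether AOS acted differently with and without STZ was tested as an interaction, the difference between STZ+AOS and STZ minus that between AOS and control. It called 0 genes (limma), with 4240 at an unadjusted p under 0.05. The smallest adjusted p was that of Nat8f1, 0.0594 (-1.51 ± 0.22). The next, all at 0.0771, were Ampd2, an AMP deaminase (1.13 ± 0.20), Pitpnm2, a phosphatidylinositol transfer protein (0.85 ± 0.16), Ascc1, of a transcription and repair complex (-1.03 ± 0.20), and Bnc2, a zinc finger protein (-0.57 ± 0.11). Each of these passed the test between STZ+AOS and STZ. Ampd2 was at 7.29, 7.73 and 8.62 FPKM in STZ and at 19.7, 12.1 and 17.4 FPKM in STZ+AOS (0.95 ± 0.14, adjusted p = 0.0071), and Bnc2 at 5.18, 5.55 and 5.15 FPKM in STZ and at 3.89, 3.97 and 3.62 FPKM in STZ+AOS (-0.38 ± 0.08, adjusted p = 0.0336). The count of the interaction depended on single libraries: without STZ 3 it was 2580 higher and 462 lower, and without STZ+AOS 2 it was 628 and 165. Control 3, which enters this contrast, had Cyp11b1 at 118 FPKM, against 0 in controls 1 and 2. Its Kap was at 15798 FPKM, against 150876 and 145522 FPKM. Without control 3 the interaction called 0 genes, with 2630 at an unadjusted p under 0.05 and a smallest adjusted p of 0.162 (limma).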

How the data were processed

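RNA was sequenced from 18 kidney samples in 6 groups of 3, and the groups were taken from the treatment labels. No label or header names the unit of the deposited table. Its values behave as FPKM computed by the authors and are treated as such. Bowtie 0.12.2 and the genome mm10 are listed in the submitters' processing notes; the sources used here do not give the counting tool or the annotation. The depth is unknown because read totals are not used here, and counting error cannot be stated. By the smallest values, what 1 read was worth varied between libraries by 1 to 1.13 times. The table has 19545 entries, and 18964 of 19542 symbols matched 1 gene of GENCODE M21, used for positions. Promoters are from RefSeq.

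A level of at least 1 FPKM in 3 or more libraries was required (12682 genes), and testing was on log2(FPKM + 1) with limma 3.58.1 (R 4.3.3), with 1 mean per group over all 18 libraries, a trend and the robust option. The method was also run on simulated data, and the outcome is not given here. Count models were not applied, since these are no counts. With 3 libraries per group an exact permutation p is at least 0.1, so none was used. No pair of replicates had more than 0.93% identical values.

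Named genes are of 4 kinds. The first are the 10 largest rises and falls among called genes with no overlap between the groups, excluding predicted symbols and genes whose larger mean was under 1 FPKM. The second are the 15 largest of each with a mean of at least 5 FPKM over the 9 libraries of AOS and the transfer groups. The third are members of 48 gene lists (984 genes, 900 tested), and the fourth the 5 smallest p values of the interaction. Some results are not reported here. Members, lists and rules were chosen with earlier results of these data known. The 16 other ways of processing were 2 scalings (median-of-ratios and quantile), no filter or a mean of at least 5 FPKM, a pseudocount of 0.1 or 5, limma without trend and robust or with library weights, the 6 libraries alone, a block for the replicate number, and each of the 6 libraries left out. Rescaling without Kap, leaving out STZ+AOS 1 and 3 (Cyp11b1 above 100 FPKM), and leaving out STZ 1 and control 3 were chosen after the data were seen.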

Additional observations from a re-analysis of the deposited data

How the results depend on the processing

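The counts of calls depended on the processing. Each of the 575 called genes kept its direction under those of the 16 other ways of processing that fitted it. Against 436 genes higher and 139 lower as reported, the counts were 37 and 91 under quantile normalization, 219 and 475 under median-of-ratios rescaling, 751 and 375 with no filter, 223 and 116 with a mean of at least 5 FPKM, 164 and 78 at a pseudocount of 0.1, 783 and 169 at a pseudocount of 5, 0 and 9 with library weights, and 0 and 0 with only the groups compared. Leaving out 1 library gave 0 to 2768 higher and 11 to 587 lower. Rescaling to the total without Kap gave 2300 and 190, leaving out STZ+AOS 1 and 3 gave 0 and 1, and leaving out STZ 1 and control 3 gave 2 and 9. Under both other scalings, 30 of the higher and 53 of the lower genes were called. The interaction, with 0 called as reported, had 2 higher and 1 lower with no filter, 0 and 1 with a mean of at least 5 FPKM, 768 and 57 with the rescaling without Kap, and 0 to 2580 higher and 0 to 462 lower with 1 library left out (0 and 1 without STZ 2). The cause of these shifts was not tested. Where an arm was left with 1 library, that library was assumed to vary like the other groups. Depth is unknown, so it is not known how much of the spread of genes near 1 FPKM is counting error.

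The replicate numbers are not stated to mark a shared animal or day. Deviations of same-numbered STZ and STZ+AOS libraries correlated at -0.121, -0.00377 and -0.0111, and 0 of the 3 STZ libraries correlated best with its own number. Deviations of 3 libraries from their own mean sum to 0, so these values cannot decide whether a day or batch was shared. With the replicate number as a block, 903 genes were higher and 213 lower, against 436 and 139 without it.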
